A study of Homo sapiens with 12 samples.

Results

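The comparison set LX-2 cells that received NAT10 siRNA and then TGF-β1 (the group SiNAT10_TGFB) against untreated LX-2 cells (con), and asked which genes ended above, below or back at the untreated level. It used 6 of the 12 RNA-seq libraries of the series, 3 per group, chosen by the column names of the deposited gene count table. LX-2 is an established human hepatic stellate cell line. The SiNAT10_TGFB cells were transfected with siRNA with Lipofectamine, a lipid carrier, for 48 h and then received TGF-β1 at 5 ng/ml for 24 h, while the con cells are labelled untreated, with no statement on a mock transfection. The other 6 libraries serve here only for side values: the TGFB group received 5 ng/ml TGF-β1 for 24 h without siRNA, and the SiNAT10 group received NAT10 siRNA alone, with a harvest time that the labels do not give. The labels name no control-siRNA group, so transfection itself and the loss of NAT10 cannot be told apart in any difference from con. The replicates are labelled biological without a statement of separate cultures, so every p-value measures the spread between these samples, which may be technical.

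Hepatic stellate cells are the main source of scar matrix in the liver. TGF-β1 binds its type II and type I receptors, which phosphorylate SMAD2 and SMAD3, and the SMAD complex with SMAD4 raises collagen, fibronectin and contractile genes as the cell becomes a myofibroblast. NAT10 is the acetyltransferase that writes acetylcytidine on RNA, including the 18S rRNA of the small ribosomal subunit, and it takes part in the processing of that rRNA.

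NAT10 itself was low in every transfected library. The 3 con libraries gave 62.9, 68.8 and 69.9 CPM (counts scaled to library size, with TMM factors), against 19.2, 15.8 and 20.7 CPM after siRNA and TGF-β1, with no overlap. The log2 fold change was -1.86 ± 0.0875 (SE; edgeR quasi-likelihood test, Benjamini-Hochberg adjusted p = 3.2e-14), and the mean was 67.0 CPM in TGFB and 18.6 CPM in SiNAT10. Total counts ran from 25877008 to 33477334 in the 6 libraries, and 18560 of 58735 genes passed the filter on low counts.

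The cells were read against 5 lists of 10 cell type markers. Among stellate markers, VIM lay between 833 and 1400 CPM in the 12 libraries and PDGFRB between 6.75 and 77.2 CPM, whereas LRAT and DCN had no count in any library and DES and LUM stayed at or under 0.358 CPM, so several defining markers of tissue stellate cells are absent from this line. The summed stellate level, which COL1A1 and VIM carry, was 4354 to 4480 CPM in con and 2115 to 2434 CPM in SiNAT10_TGFB. Of the hepatocyte list, 9 of 10 markers stayed under 1 CPM everywhere, and the exception was SERPINA1. The summed macrophage level was 7.85 to 8.63 CPM in con and 11 to 12.2 CPM in SiNAT10_TGFB, without overlap. CD14 (up to 5.05 CPM), CSF1R (up to 5.97 CPM), ADGRE1 and ITGAM carried it, and the other 6 markers, PTPRC, CD68 and LYZ among them, stayed under 1 CPM in all 12 libraries. The endothelial sum was 171 to 191.7 CPM in con and lower, at 142.9 to 161.9 CPM, in SiNAT10_TGFB, nearly all of it TIE1, and PECAM1, CDH5 and KDR stayed at or under 1.32 CPM. The cholangiocyte sum was 47.38 to 53.24 CPM in con and 46.38 to 49.35 CPM in SiNAT10_TGFB, led by SOX9. In bulk libraries such as these, fewer cells of a type and less RNA per cell cannot be told apart.

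All 6 siRNA libraries stood apart from the other 6 in ribosomal, small nucleolar and histone RNAs, classes chosen after the values were seen. Genes that lie inside annotated 18S rRNA took 2.99 to 4.96 CPM (here of all counts) in con and 943.4 to 1374 in SiNAT10_TGFB, beside 4.64 to 12.2 in TGFB and 650.1 to 1327 in SiNAT10. The mitochondrial rRNAs MT-RNR1 and MT-RNR2 together took 797.7 to 881.7 in con and 2998 to 3184 in SiNAT10_TGFB. Small nucleolar RNAs took 36.2 to 40 in con and 67.7 to 69.9 in SiNAT10_TGFB, with 24 of 63 tested called higher and 1 lower. Beside this and the histone counts that follow, 27.3% of all genes tested were called higher and 27.3% lower. Replication histone genes took 166.0 to 176.2 in con and 284.4 to 295.7 in SiNAT10_TGFB, with 27 of 47 called higher and 3 lower, while the 13 mitochondrial protein-coding genes took 20470 to 21460 in con and 19380 to 20400 in SiNAT10_TGFB, a ratio of 0.951. The sources used here do not say how tailed RNA was selected or rRNA removed. A fit without the rRNA, snoRNA and histone genes, added after seeing the data, kept 10050 of the 10136 calls described below. The mitochondrial protein-coding genes stayed in that fit. The mitochondrial rRNAs, the largest class left out, held at most 0.33% of the counts of a library, so the fit could change little.

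**Figure D1:**
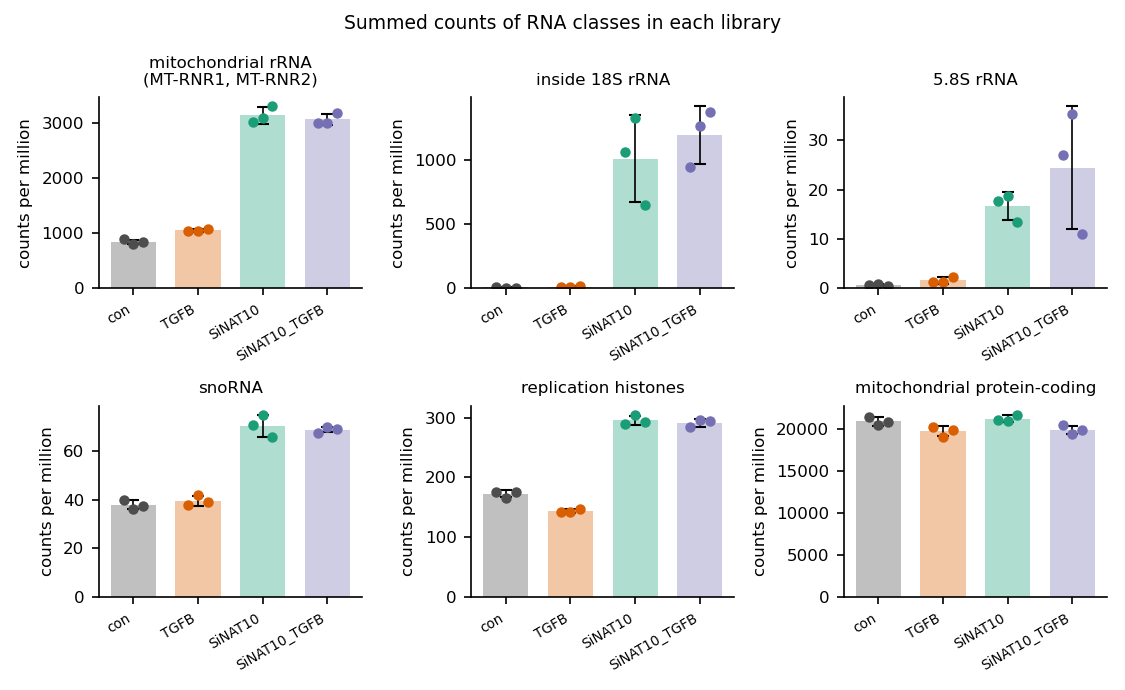
Summed CPM (of all counts) for 6 RNA classes in each library (points), with the mean (bar) and SD (error bar) of the 3 libraries per group, on linear axes. The SiNAT10 and SiNAT10_TGFB libraries lie above con and TGFB in the panels of mitochondrial rRNA, genes inside 18S rRNA, 5.8S rRNA, snoRNA and replication histones. For mitochondrial protein-coding genes the SiNAT10_TGFB libraries lie slightly below con.

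GC content also moved with the comparison. Across 13039 genes with a mean of at least 50 counts, the Spearman correlation of the log2 fold change with GC content was -0.28, a description across genes that share the same libraries. The median log2 fold change ran from 0.13 in genes under 38% GC to -0.52 in genes over 62% GC, of which 65% were called lower. Its part in single results was not tested. A fit with the GC trend removed kept 8585 of the 10136 calls and reversed 61. Values of this fit are given below for most named genes and lists whose call it changes or whose value it moves over 1.5 times. Counting by strand is not stated either: antisense genes overlap IMP3 (59.3% of its length), DDIT3 (31.6%), NID2 (30%), TBL3 (29.9%), NGFR (27.1%), HEATR1 (23.2%), TPM1 (21.4%) and IL6 (20.7%), and genes on the same strand overlap IRF9 (48.4%) and RPS2 (25.6%), so these counts are uncertain.

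Genes above and below the untreated level were about equal in number. In SiNAT10_TGFB, 5064 genes were called higher than con, which is 27.3% of the genes tested, and 5072 were called lower, also 27.3% (adjusted p under 0.05). Over all genes the median was 0.013 (log2). Scaling sets the libraries to a common level, so this balance is relative, and a shift of all genes together would not be seen. A change of at least 1 on the log2 scale was seen in 1519 of the higher and 1726 of the lower genes, and 2566 called genes had a 95% interval wholly inside 1.5-fold either way. For 11324 genes, or 61%, the 3 SiNAT10_TGFB libraries did not overlap the 3 con libraries. Another 3488 genes (18.8%) were not called and had a 95% interval inside 1.5-fold, which is what "near con" means from here on, and 4936 (26.6%) were not called with a wider interval and stay unresolved.

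**Figure D2:**
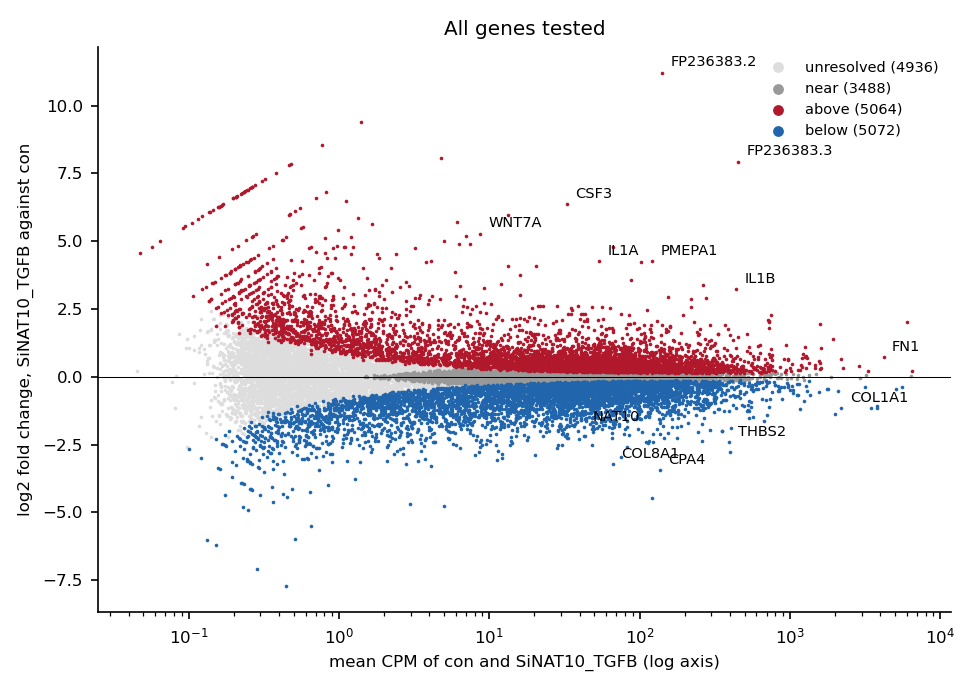
Log2 fold change of SiNAT10_TGFB against con for the 18560 genes tested, against the mean CPM of both groups on a log axis, each point a gene coloured by its end state. Called genes extend to both sides in similar number (5064 above, 5072 below), and the straight streaks at the far left are genes with no or very few con counts.

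The largest rises among genes with a mean of at least 50 counts belonged to genes of different kinds. FP236383.2, which lies on chromosome 21 opposite an 18S rRNA gene, had 7, 4 and 0 counts in con and 4339, 8364 and 10293 in SiNAT10_TGFB, and because its copies are near identical its count is uncertain. Its copy FP236383.3 had 159, 102 and 93 counts in con and 22302, 24411 and 27329 in SiNAT10_TGFB. CSF3, the granulocyte colony-stimulating factor, was at 0.436, 0.867 and 1.06 CPM in con and at 69.8, 72.8 and 51.4 CPM in SiNAT10_TGFB. WNT7A, a secreted WNT ligand, stood at 0.494, 0.533 and 0.281 CPM in con and at 17.2, 16.2 and 17.8 CPM in SiNAT10_TGFB, above the mean of 7.26 CPM with TGF-β1 alone and 1.55 CPM with siRNA alone. These genes are far clear of their con libraries. MYCT1 rose by 5.96 ± 0.197 on the log2 scale and TMEM156 by 5.18 ± 0.217, each with con under 1 CPM. ODAPH had 0, 1 and 2 counts in con and 251, 293 and 237 in SiNAT10_TGFB, and EHF, an epithelial ETS factor, had 0, 0 and 6 against 79, 97 and 93.

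In the other direction, SFRP1, a secreted WNT antagonist, stood at 230, 233 and 237 CPM in con and at 11.6, 8.75 and 11.3 CPM in SiNAT10_TGFB, a log2 fold change of -4.46 ± 0.0997 (edgeR adjusted p = 7.6e-20). Its mean was 87.8 CPM in TGFB and 53.9 CPM in SiNAT10, so the combined group was the lowest of the 4. CPA4, a carboxypeptidase, showed the same order, with means of 249 CPM in con, 72.2 in TGFB, 45.7 in SiNAT10 and 22.8 in SiNAT10_TGFB. ATOH8, a basic helix-loop-helix factor, dropped from 6.07, 5.53 and 5.53 CPM to 0.208, 0.230 and 0.217 CPM. COL8A1 (-3.22 ± 0.107), ELFN2 (-3.28 ± 0.282), MUC3A (-3.21 ± 0.284) and the locus AL713998.1 (-3.10 ± 0.247) were also among the largest decreases.

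Collagen genes ended mostly under the untreated level. Of 19 tested fibrillar and associated collagens, 12 were lower than con, 4 higher, 2 near con and 1 unresolved, with a median log2 fold change of -0.47 beside 0.013 over all genes. Counts of this and every later list stand beside 27.3% of all genes called higher, 27.3% called lower and 18.8% near con. A list share close to these is no result about the list. COL1A1, the α1 chain of type I collagen, was at 2922, 3170 and 3032 CPM in con and at 1548, 1313 and 1231 CPM in SiNAT10_TGFB. Every SiNAT10_TGFB library was below every con library although TGF-β1 alone had brought the mean to 7550 CPM and siRNA alone to 880 CPM. The log2 fold change from con was -1.16 ± 0.0748 (edgeR adjusted p = 7.7e-12), and -0.77 with the GC trend removed. COL3A1, the chain of type III collagen, stood at 62.5, 58.4 and 67.1 CPM in con and at 26.1, 19.5 and 26.1 CPM in SiNAT10_TGFB, beside means of 200 CPM in TGFB and 9.71 CPM in SiNAT10. It was lower than con by a log2 fold change of -1.39 ± 0.103 (edgeR adjusted p = 7.6e-11). COL5A3 (-1.15 ± 0.244, or -0.68 with the GC trend removed) and COL5A2 (-1.04 ± 0.0705) were lower as well, as were COL18A1, the source of endostatin (-1.54 ± 0.0780), and COL12A1, a fibril-associated collagen (-1.54 ± 0.0572).

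COL4A1 had 407, 391 and 375 CPM in con and 956, 860 and 818 CPM in SiNAT10_TGFB, a log2 fold change of 1.17 ± 0.0579, whereas COL4A2, its partner chain from the neighbouring gene on chromosome 13, fell from 997, 981 and 976 CPM to 814, 725 and 722 CPM (-0.39 ± 0.0496). The call on COL4A2 was not made with the GC trend removed (0.03, edgeR adjusted p = 0.70). COL6A3 and COL6A2 of type VI collagen were near con, at -0.14 ± 0.0792 and 0.15 ± 0.0689, and COL6A1 was lower at -0.47 ± 0.0650. These 3 chains depended on the GC trend: without it COL6A1 was not called (-0.02), COL6A2 was called higher (0.65) and COL6A3 lower (-0.17). COL1A2, which encodes the partner chain of COL1A1, was scarcely detected, with 43, 50 and 42 counts in con and 40, 50 and 44 in SiNAT10_TGFB, so its end state is unresolved (0.21, or 0.07 with the GC trend removed). The other 3 genes called higher were at low level: COL15A1 rose from 26, 20 and 29 counts to 66, 49 and 52, COL11A1 from 0, 2 and 0 counts to 14, 16 and 10, and COL10A1 stayed under 0.4 CPM in all libraries of both groups. With the GC trend removed the list's median moved to -0.13, with 9 lower and 5 higher.

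The enzymes that modify and crosslink collagen did not share one direction. Of 21 tested, 8 were higher (38.1%), 9 lower (42.9%) and 4 near con, with a median of 0.008. With the GC trend removed 10 were higher and 10 lower, with a median of -0.14. PLOD2, a lysyl hydroxylase of the collagen telopeptide, rose from 179, 154 and 158 CPM to 408, 412 and 420 CPM (1.34 ± 0.0783), and the prolyl hydroxylase chains P4HA2 (1.12 ± 0.0565) and P4HA1 were also higher. PLOD3 fell from 170, 192 and 191 CPM to 78.8, 75.6 and 79.1 CPM (-1.24 ± 0.0713), with FKBP10, a collagen chaperone, at -1.14 ± 0.0588 and LOXL1, an elastin crosslinking oxidase, at -1.07 ± 0.0882 (-0.57 with the GC trend removed). LOX, the lysyl oxidase that starts collagen crosslinks, ended near the untreated level. It was at 41, 39.3 and 39 CPM in con and at 39.2, 36.3 and 42.2 CPM in SiNAT10_TGFB, beside a mean of 212 CPM in TGFB and 26.3 CPM in SiNAT10. The groups overlap and the log2 fold change was -0.02 with a 95% interval from -0.17 to 0.13, though it was called lower at -0.17 with the GC trend removed (edgeR adjusted p = 0.011).

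Among 23 tested matrix glycoproteins, 10 were higher and 10 lower than con, 2 near con and 1 unresolved, with a median of -0.08, or -0.14 without the GC trend. FN1, fibronectin, had 3003, 3325 and 3186 CPM in con and 5760, 4798 and 5188 CPM in SiNAT10_TGFB, beside means of 15362 CPM in TGFB and 1564 CPM in SiNAT10. It ended above the untreated level by 0.73 ± 0.0560 on the log2 scale (edgeR adjusted p = 1.5e-10). TGFBI, a secreted integrin-binding protein, followed the same order, with 1007, 1127 and 1098 CPM in con and 2862, 2735 and 2883 CPM in SiNAT10_TGFB. SPARC, which binds collagen, rose from 761, 836 and 832 CPM to 1664, 1721 and 1747 CPM, close to its TGFB mean of 1814 CPM. With siRNA alone SPARC also lay above con, at 41034, 35821 and 37375 counts against 26185, 25071 and 26652. THBS1, which activates latent TGF-β, was higher by 0.73 ± 0.0534, while THBS2 of the same family fell from 614, 710 and 680 CPM to 133, 111 and 130 CPM. HSPG2, the basement membrane proteoglycan perlecan, fell from 202, 276 and 244 CPM to 58.5, 49.5 and 43.8 CPM, and NID2, nidogen 2, was lower by a log2 fold change of -1.49 ± 0.0951.

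**Figure D3:**
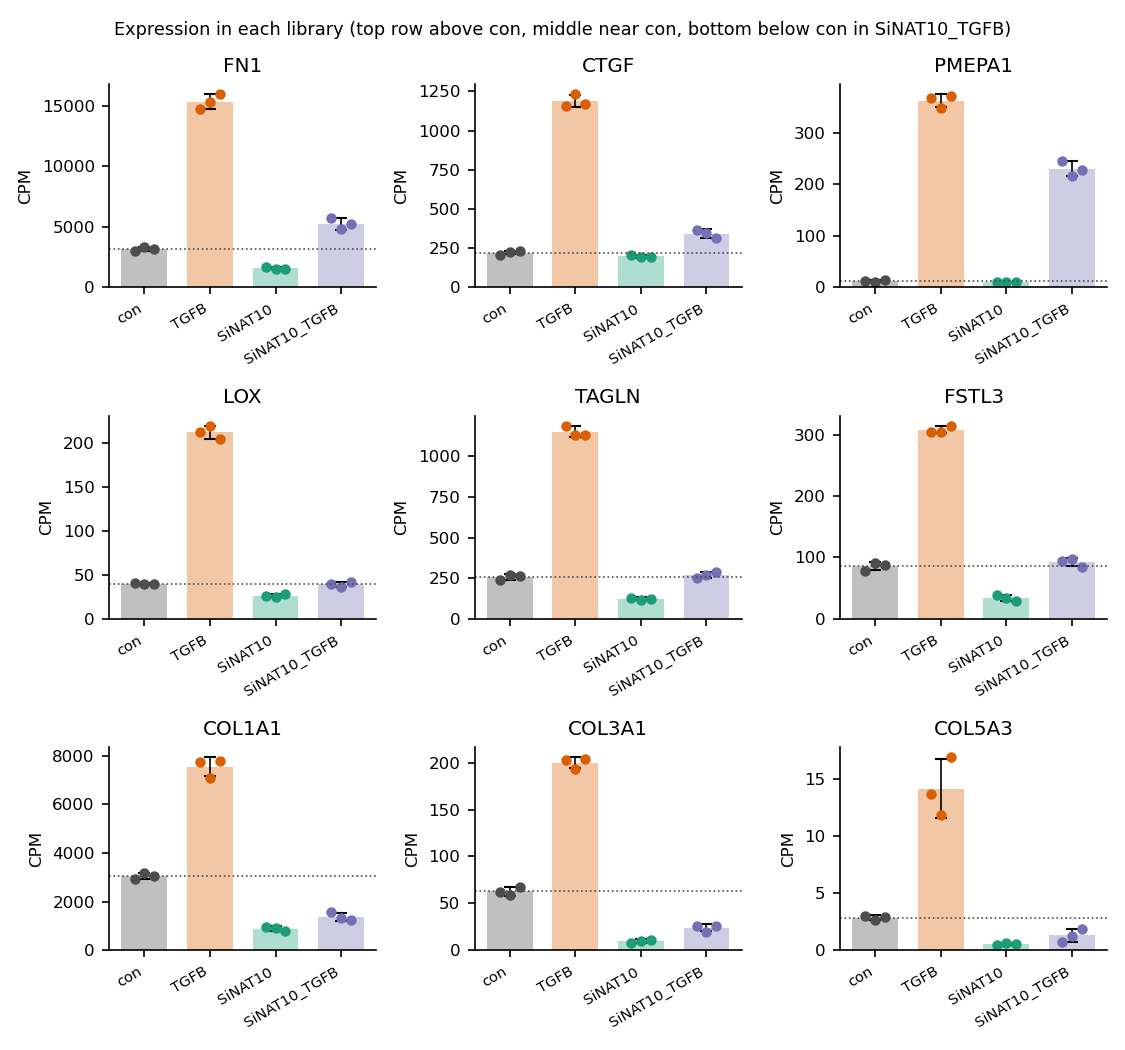
CPM of 9 genes in each library (points), with the mean (bar) and SD (error bar) of the 3 libraries per group and a dotted line at the con mean, on linear axes from 0. FN1, CTGF and PMEPA1 end above con, LOX, TAGLN and FSTL3 at the con level, and COL1A1, COL3A1 and COL5A3 below con in SiNAT10_TGFB, while all 9 are highest in TGFB.

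Genes that respond directly to TGF-β and SMADs were mostly above the untreated level. Of 34 tested, 23 were higher, 6 lower, 4 near con and 1 unresolved, with a median of 1.06. With TGF-β1 alone 27 were higher than con and 3 lower, and with siRNA alone 12 were higher and 16 lower. PMEPA1, a feedback inhibitor of SMAD signalling, stood at 12.4, 10.5 and 13.1 CPM in con and at 245, 217 and 227 CPM in SiNAT10_TGFB, beside means of 362 CPM in TGFB and 9.23 CPM in SiNAT10. That is a log2 fold change of 4.26 ± 0.0797 (edgeR adjusted p = 1.1e-20). SMAD7, the inhibitory SMAD, went from 28.2, 32.7 and 30.9 CPM to 88.4, 87.3 and 83.6 CPM, and its TGFB mean was 84.9 CPM. Differences between SiNAT10_TGFB and TGFB, tested in the same fit, were 0.03 for SMAD7 (edgeR adjusted p = 0.79), -0.01 for JUNB (0.93), -0.04 for BHLHE40 (0.59) and -0.66 for PMEPA1 (1.4e-08). JUNB, an AP-1 subunit, had 24.3, 23.8 and 26.8 CPM in con and 118, 123 and 134 CPM in SiNAT10_TGFB, and BHLHE40, a transcriptional repressor, was higher than con by 1.92 ± 0.0550. Counts with siRNA alone also lay above con. JUNB had 1934, 1820 and 1521 in SiNAT10 against 835, 715 and 857 in con. BHLHE40 had 9661, 9253 and 8464 against 5280, 4758 and 4907. The part of each treatment in these end levels was not tested.

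CTGF, a matricellular mediator of fibrosis, ended above con but below its level with TGF-β1 alone. It was at 207, 226 and 229 CPM in con and at 366, 347 and 314 CPM in SiNAT10_TGFB, with a TGFB mean of 1188 CPM. All 3 SiNAT10_TGFB libraries lie above con, by 0.63 ± 0.0611 on the log2 scale (edgeR adjusted p = 7.1e-09). FSTL3, a follistatin-like activin antagonist, was near con at 94.0, 97.4 and 84.5 CPM against 78.2, 90.5 and 87.8 CPM, although it was called higher at 0.58 with the GC trend removed. Its counts were 1116, 942 and 799 in SiNAT10 against 2692, 2715 and 2810 in con. The inhibitors of differentiation ID1 and ID3, which answer to BMP receptors, and SMAD6, the inhibitory SMAD of that branch, ended low. ID1 fell from 52.3, 53.3 and 54.3 CPM to 9.89, 13.1 and 12.1 CPM (-2.19 ± 0.102), ID3 by a log2 fold change of -1.56 ± 0.0916, and SMAD6 from 8.74, 10.3 and 10.9 CPM to 2.46, 2.80 and 3.33 CPM.

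Of 20 ligands, receptors, latency proteins and SMADs tested, 4 were higher, 8 lower, 5 near con and 3 unresolved, beside 27.3% of all genes called each way. Their median was -0.11, or -0.06 without the GC trend. TGFB1 was at 182, 202 and 196 CPM in con and at 246, 219 and 213 CPM in SiNAT10_TGFB, beside 516 CPM in TGFB. Its log2 fold change of 0.23 ± 0.0769 (edgeR adjusted p = 0.017) was not called without con replicate 1 (0.18, adjusted p = 0.083) or without SiNAT10_TGFB replicate 1 (0.16, adjusted p = 0.12), and it was 0.68 with the GC trend removed. TGFB2 fell from 81.7, 74.8 and 72.9 CPM to 22.1, 17.9 and 24.8 CPM even though TGF-β1 alone gave a mean of 235 CPM, and 26.6% of this gene overlaps another gene on its strand, so its count is uncertain. The type II receptor TGFBR2 rose from 105, 109 and 110 CPM to 255, 257 and 261 CPM (1.26 ± 0.0547), while the type I receptor TGFBR1 dropped from 155, 155 and 145 CPM to 77, 69.6 and 74.5 CPM (-1.04 ± 0.0685). TGFBR3, the co-receptor betaglycan, was higher by 0.62 ± 0.116 and ACVR1, an activin and BMP receptor, by 0.39 ± 0.0912 (0.25 with the GC trend removed). Of the SMADs, SMAD2 and SMAD4 were near con, at -0.12 ± 0.0704 and 0.12 ± 0.0720. Without the GC trend SMAD2 was called lower (-0.26) and SMAD4 was not called (-0.025). SMAD3 was lower than con at -0.38 ± 0.0562 and SMAD5, of the BMP branch, at -1.14 ± 0.0802.

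Contractile and cytoskeletal genes were lower than con in 18 of 26 tested, higher in 5, near con in 2 and unresolved in 1, with a median of -0.33. MYH9, the heavy chain of nonmuscle myosin, had 5020, 5362 and 5122 CPM in con and 2586, 2420 and 2384 CPM in SiNAT10_TGFB. MYL9, a regulatory light chain, dropped from 643, 705 and 673 CPM to 330, 318 and 309 CPM, and ACTG2, the enteric smooth muscle actin, from 66.5, 76.2 and 67.4 CPM to 13.5, 16.7 and 16.2 CPM. All 3 genes were separated from con in every library, and the log2 fold change of MYL9 was -1.08 ± 0.0560, or -0.71 with the GC trend removed. FLNA, which crosslinks actin, was lower by -1.16 ± 0.0702 (-0.74 without the GC trend). TAGLN, an actin-binding protein of smooth muscle and myofibroblasts, was near con, at 252, 270 and 287 CPM against 239, 270 and 264 CPM in con, beside 1151 CPM in TGFB. TAGLN counts were 3784, 3229 and 3451 in SiNAT10 against 8214, 8103 and 8462 in con. The log2 fold change of TAGLN in SiNAT10_TGFB against con was 0.07 with a 95% interval from -0.06 to 0.20. It was called higher at 0.28 with the GC trend removed. TPM1, a tropomyosin, stayed higher than con by 0.66 ± 0.0472, as did MYL12A by 0.66 ± 0.0627 and VCL, vinculin, by 0.26 ± 0.0488 (0.12 without the GC trend). ACTA2, the α smooth muscle actin used as a myofibroblast marker, was low in this line, with 122, 82 and 113 counts in con and 124, 99 and 130 counts in SiNAT10_TGFB, and remained unresolved (0.38, 95% interval -0.03 to 0.80). An antisense gene overlaps 30.1% of it.

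Integrins, the receptors through which cells hold and sense matrix, were higher in 8 of 13 tested, lower in 4 and unresolved in 1, with a median of 0.76. The lower share of 30.8% lay near the 27.3% of all genes called lower. ITGA2, of the collagen receptor α2β1, stood at 54.6, 50 and 56.6 CPM in con and at 405, 351 and 408 CPM in SiNAT10_TGFB (2.85 ± 0.0865, edgeR adjusted p = 2.1e-17). Its mean was 69.0 CPM in TGFB and 238 CPM in SiNAT10, so the combined group was the highest. ITGA5, the fibronectin receptor chain, rose from 547, 590 and 585 CPM to 1336, 1303 and 1286 CPM, at its TGFB mean of 1280 CPM, and ITGB5 was higher by 1.14 ± 0.0839. With siRNA alone ITGA5 also lay above con, at 23419, 21477 and 22294 counts against 18825, 17689 and 18729. The laminin-binding chains ITGA7 and ITGA3 were lower: ITGA7 dropped from 156, 173 and 172 CPM to 44.8, 40.4 and 38 CPM and ITGA3 by a log2 fold change of -0.67 ± 0.0615, or -0.28 with the GC trend removed. ITGA4 was also lower, at under 2 CPM in all libraries of both groups.

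Matrix proteases and their inhibitors were higher in 13 of 22 tested, lower in 4, near con in 2 and unresolved in 3, with a median of 0.98. MMP2, gelatinase A, had 14.8, 13.5 and 13.5 CPM in con and 87.0, 74.6 and 87.4 CPM in SiNAT10_TGFB, beside 129 CPM in TGFB and 7.94 CPM in SiNAT10. MMP1, interstitial collagenase, showed the opposite order between the single treatments: con had 59.5, 57.9 and 60.4 CPM, SiNAT10_TGFB 214, 245 and 210 CPM, TGFB a mean of 27.9 CPM and SiNAT10 a mean of 627 CPM. Both genes ended above con without overlap, MMP2 by 2.58 ± 0.0818 and MMP1 by 1.91 ± 0.0682 on the log2 scale. MMP3, stromelysin, had 11, 0 and 8 counts in con and 52, 60 and 50 in SiNAT10_TGFB. TIMP1, the inhibitor that stellate cells secrete in fibrosis, rose from 155, 175 and 177 CPM to 386, 398 and 400 CPM (1.22 ± 0.0651), while TIMP2 fell from 366, 367 and 365 CPM to 209, 196 and 195 CPM (-0.87 ± 0.0511). ADAMTS12 was higher by 1.52 ± 0.0506, and ADAMTS1 and MMP19 were lower by under 0.4 on the log2 scale.

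Inflammatory and NF-kB genes showed the highest median of the 23 lists, 1.81. Of 29 tested, 25 were higher than con, 2 lower and 2 unresolved. In SiNAT10 alone 26 were higher and 0 lower, with a median of 1.72, and in TGFB 10 were higher and 11 lower. IL1B, interleukin 1β, was at 81.4, 82.4 and 87.4 CPM in con and at 759, 824 and 791 CPM in SiNAT10_TGFB (3.24 ± 0.0637, edgeR adjusted p = 1.2e-20), beside 64.1 CPM in TGFB and 836 CPM in SiNAT10. IL1A rose from 5.52, 5.33 and 5.18 CPM to 106, 104 and 97.2 CPM. In TGFB against con IL1B was called lower and IL1A was not called. The neutrophil chemokine CXCL8 went from 65.3, 59.1 and 68.9 CPM to 417, 506 and 536 CPM and CXCL1 from 34.4, 34.0 and 40.4 CPM to 112, 135 and 133 CPM. IL6 was at 5.98, 6.70 and 6.84 CPM in con and at 29.5, 29.3 and 31.6 CPM in SiNAT10_TGFB, with 34.4 CPM in TGFB. PTX3, a soluble pattern receptor, fell from 75.9, 71.1 and 77.3 CPM to 44.1, 46.3 and 48.2 CPM, and VCAM1, an adhesion molecule, by a log2 fold change of -1.10 ± 0.191. Both of these had fallen with TGF-β1 alone, to means of 13.8 and 1.01 CPM. The summed macrophage level given above was also higher in SiNAT10_TGFB, and its part in these results was not tested.

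Type I interferon response genes were higher than con in 28 of 40 tested, with 8 near con and 4 unresolved and a median of 0.81. RSAD2, viperin, stood at 10.7, 11.1 and 11 CPM in con and at 62.4, 63.4 and 74.2 CPM in SiNAT10_TGFB. IFIT2 rose from 65.6, 66.2 and 66.5 CPM to 316, 313 and 337 CPM, and ISG15, the ubiquitin-like modifier, from 62.4, 69.6 and 75 CPM to 237, 256 and 262 CPM. RSAD2, IFIT2 and ISG15 were separated from con in every library, with log2 fold changes of 2.61 ± 0.0908, 2.28 ± 0.0640 and 1.87 ± 0.0763. TGF-β1 alone gave 8.03 CPM for RSAD2, 46.7 CPM for IFIT2 and 61.9 CPM for ISG15, so the combined group did not lie between con and TGFB. IFIT2 had 7996, 7890 and 8473 counts in SiNAT10 and 9111, 8160 and 9295 in SiNAT10_TGFB. Of the list, siRNA alone gave 30 genes higher than con and 0 lower, with a median of 0.85. TGF-β1 alone gave 1 higher and 23 lower. IRF9, a transcription factor of this response, was at 1.95, 2.93 and 2.25 CPM in con and 1.70, 1.65 and 1.63 CPM in SiNAT10_TGFB, and was unresolved at -0.51 ± 0.256.

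The promoters of these 2 groups were searched for sequence elements of these pathways. Promoter windows of 300 bases, from 250 before to 50 after the annotated start, come from RefSeq on GRCh38.p14, and were found for 33 interferon, 25 inflammatory and 13 collagen genes of the lists. The interferon element GAAANNGAA, read on both strands, occurs in 21 of the 33 interferon promoters (63.6%) and in 8.29% of all 27305 promoters, in 6 of the 25 inflammatory promoters (24%) and in 0 of the 13 collagen promoters. The NF-kB element GGANTTTCC occurs in 12 of the 25 inflammatory promoters (48.0%) beside 1.64% of all, in 5 interferon promoters (15.2%) and in 1 collagen promoter (7.69%), and the AP-1 element TGANTCA in 4 of 25 (16.0%) beside 7.76% of all, in 4 interferon promoters (12.1%) and in 0 collagen promoters. The promoters of ISG15, RSAD2, CXCL8 and CXCL1 are shown because their genes carry the rises above, each 5′ to 3′ on the gene's plus strand in lower case with the matched elements in capitals. A match describes the letters in the window and not a bound site. The lists were written from general knowledge, and every matched member counts whatever its end state. The shares therefore use no expression value and are no test of the rises. ISG15 lies at chr1:1013247-1013546 with 3 overlapping interferon elements between -113 and -101, RSAD2 at chr2:6865635-6865934 with 1 at -79, CXCL8 at chr4:73740319-73740618 with the AP-1 element at -137 and the NF-kB element at -91, and CXCL1 at chr4:73869143-73869442 with the NF-kB element at -78, positions counted to the element's first base from the start.
ISG15: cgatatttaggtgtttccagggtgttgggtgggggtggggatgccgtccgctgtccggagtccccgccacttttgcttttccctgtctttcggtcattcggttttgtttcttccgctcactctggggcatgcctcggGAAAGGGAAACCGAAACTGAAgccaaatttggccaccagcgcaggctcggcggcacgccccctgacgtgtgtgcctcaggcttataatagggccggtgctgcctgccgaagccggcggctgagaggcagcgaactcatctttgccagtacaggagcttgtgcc
RSAD2: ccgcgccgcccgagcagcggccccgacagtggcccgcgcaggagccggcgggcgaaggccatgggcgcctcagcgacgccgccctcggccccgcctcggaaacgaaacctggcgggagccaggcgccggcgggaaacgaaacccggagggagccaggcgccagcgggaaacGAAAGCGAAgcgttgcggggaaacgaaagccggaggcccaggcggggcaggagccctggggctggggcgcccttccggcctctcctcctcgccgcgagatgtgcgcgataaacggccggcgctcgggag
CXCL8: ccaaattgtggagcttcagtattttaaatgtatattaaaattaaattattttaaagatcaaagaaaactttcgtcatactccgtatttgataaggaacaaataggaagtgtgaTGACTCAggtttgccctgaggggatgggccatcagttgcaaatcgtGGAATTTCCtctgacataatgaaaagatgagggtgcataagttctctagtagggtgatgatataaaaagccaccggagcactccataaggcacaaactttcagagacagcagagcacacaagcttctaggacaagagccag
CXCL1: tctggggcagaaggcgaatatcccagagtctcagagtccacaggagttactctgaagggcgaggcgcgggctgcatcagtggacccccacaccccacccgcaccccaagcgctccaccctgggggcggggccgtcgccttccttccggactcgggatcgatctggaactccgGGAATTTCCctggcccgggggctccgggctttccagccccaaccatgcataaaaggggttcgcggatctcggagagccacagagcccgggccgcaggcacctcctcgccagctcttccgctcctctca

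Of 13 AP-1 and EGR factors, 8 were higher, 2 lower, 2 near con and 1 unresolved, with a median of 0.35 that became 0.73 with the GC trend removed. FOSB rose from 9.21, 8.77 and 7.87 CPM to 37, 28.8 and 34.4 CPM and ATF3, a stress-induced member, from 17.8, 16.6 and 18.1 CPM to 63, 64.9 and 67 CPM. FOSL2 fell from 468, 492 and 462 CPM to 281, 259 and 247 CPM. FOSL1 was called lower at -0.24 ± 0.0719, but it was not called without SiNAT10_TGFB replicate 3 (-0.17, edgeR adjusted p = 0.069) and turned to 0.11 with the GC trend removed.

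Genes of mitosis were lower than con almost throughout. Of 34 tested, 32 were lower, 1 near con and 1 unresolved, with a median of -0.91. In SiNAT10 alone 32 were lower and 0 higher, with a median of -0.75, and in TGFB 18 were lower and 0 higher. CCNA2, cyclin A2, dropped from 189, 188 and 177 CPM to 36.5, 34.2 and 34.7 CPM (-2.39 ± 0.0730, edgeR adjusted p = 2.1e-17), and its TGFB mean was 189 CPM. MKI67, the proliferation antigen Ki-67, fell from 1038, 1053 and 961 CPM to 410, 367 and 375 CPM, and KIF20A, a cytokinesis kinesin, from 266, 280 and 288 CPM to 77.3, 73.7 and 79.9 CPM. CDK1, the mitotic kinase, was lower by a smaller log2 fold change of -0.47 ± 0.0908, and CDC25C, its activating phosphatase, was near con but called lower without the GC trend (-0.29). Genes of DNA replication were less uniform, with 20 of 39 lower, 7 higher and 12 near con and a median of -0.18. GINS1 of the replicative helicase (-1.76 ± 0.0771), POLD1, a DNA polymerase δ subunit (-1.28 ± 0.104, or -0.80 with the GC trend removed), and LIG1, DNA ligase I (-1.20 ± 0.0705), were the clearest decreases, while RPA2, CCNE1 and FEN1 were higher by 0.53, 0.50 and 0.44. The replication histone counts given above rose in the same libraries.

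Targets of p53 were higher in 21 of 32 tested, lower in 7, near con in 2 and unresolved in 2, with a median of 0.48. CDKN1A, the cyclin kinase inhibitor p21, stood at 73, 70.3 and 77 CPM in con and at 236, 249 and 229 CPM in SiNAT10_TGFB (1.70 ± 0.0623). PMAIP1, the apoptosis factor NOXA, rose from 101, 88.9 and 92.2 CPM to 222, 241 and 264 CPM and PLK3 from 9.27, 11.9 and 10.8 CPM to 31.9, 32.2 and 30.5 CPM. MDM2, the p53 ligase and feedback target, was higher by 0.49 ± 0.0794. BAX, an apoptosis effector, was lower by -0.42 ± 0.0683 (-0.12 with the GC trend removed), TP53I11 by -1.55 ± 0.108 and PLK2 by -0.94 ± 0.0503.

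NAT10 acts in small subunit assembly, and the genes of that machinery were higher in 29 of 42 tested, lower in 3 and near con in 10, with a median of 0.35. UTP3, a processome subunit, went from 44.1, 37.3 and 41.7 CPM to 110, 110 and 114 CPM, IMP3 from 15.9, 16.8 and 13.6 CPM to 28.8, 33.4 and 32.7 CPM, and RCL1 from 13, 12 and 10.7 CPM to 26.4, 26.8 and 27.3 CPM. HEATR1 fell from 83.1, 82.9 and 79.3 CPM to 61.9, 58.5 and 59.2 CPM. UTP20 was lower by -0.21 ± 0.0605 (-0.35 with the GC trend removed) and TBL3 by -0.39 ± 0.108, a call that ended with the GC trend removed (0.08, edgeR adjusted p = 0.37). Cytosolic ribosomal protein genes were higher in 39 of 49 tested, lower in 1 and near con in 9, in a narrow range with a median of 0.34 and a highest value of 0.67 in RPL24. RPL24 stood at 143, 127 and 139 CPM in con and at 192, 238 and 222 CPM in SiNAT10_TGFB. RPS2, the gene called lower (-0.21 ± 0.0652), lost its call without con replicate 3 (-0.16, edgeR adjusted p = 0.069), and its value was -0.02 once the GC trend was taken out. These genes have many near-identical pseudogenes, so their counts are uncertain.

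Endoplasmic reticulum chaperones and unfolded protein response genes were higher in 11 of 22 tested, lower in 4 and near con in 7, with a median of 0.17. XBP1, a transcription factor of that response, rose from 38.2, 39.1 and 40.4 CPM to 87.4, 106 and 98.2 CPM, DNAJB9 from 10.8, 8.93 and 8.40 CPM to 27.7, 29 and 29.8 CPM and HERPUD1 from 42.6, 38.3 and 43.0 CPM to 90.3, 90.2 and 87.4 CPM. The chaperone HSPA5 was higher by 0.24 ± 0.0449 (0.09 without the GC trend), and CALR, calreticulin, was lower by -0.34 ± 0.0504, with CRELD2 at -0.66 ± 0.0727. ATF4 and amino acid response genes were higher in 13 of 25 tested, lower in 9, near con in 2 and unresolved in 1, with a median of 0.25, or 0.11 with the GC trend removed. Within one amino acid transporter the partners moved apart: SLC3A2, the heavy chain, rose from 248, 258 and 269 CPM to 739, 829 and 775 CPM (1.60 ± 0.0612), while SLC7A5, the light chain that carries leucine, fell from 193, 220 and 204 CPM to 42.8, 37.3 and 36.8 CPM (-2.40 ± 0.0904). DDIT3, the stress factor CHOP, was higher by 1.65 ± 0.1, and the arginine carrier SLC7A1 was lower by -0.83 ± 0.0508.

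Fatty acid synthesis genes were lower in 13 of 14 tested and higher in 1, with a median of -0.41. FASN, fatty acid synthase, dropped from 416, 511 and 493 CPM to 228, 217 and 174 CPM (-1.20, or -0.71 with the GC trend removed), SREBF1, the factor that drives these genes, from 73.9, 77.9 and 77.7 CPM to 34.4, 27.9 and 25.9 CPM, and the elongase ELOVL6 from 42.6, 43.3 and 44.2 CPM to 18.1, 15 and 16.8 CPM. ACLY, which makes cytosolic acetyl-CoA, was the exception at 0.24 ± 0.0491. Cholesterol synthesis genes were split, with 10 of 25 higher, 10 lower and 5 near con and a median of -0.09. INSIG1, which holds back sterol synthesis, rose from 83.7, 82.8 and 89.1 CPM to 121, 131 and 128 CPM, and the sterol carrier STARD4 was higher by 0.91 ± 0.0888. LSS, lanosterol synthase, fell from 138, 155 and 154 CPM to 88.7, 79.8 and 81.9 CPM.

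NRF2 and ferroptosis defence genes were higher in 8 of 19 tested, lower in 2, near con in 8 and unresolved in 1, with a median of 0.13, and 12 were higher with a median of 0.31 with the GC trend removed. HMOX1, heme oxygenase 1, rose from 18.5, 18.1 and 19.6 CPM to 113, 113 and 97.9 CPM (2.52 ± 0.0923), FTL, the ferritin light chain, by 1.07 ± 0.0535 and GCLM by 1.00 ± 0.0789. SLC7A11, the cystine carrier, was lower by -0.47 ± 0.104. PGD, of the pentose phosphate pathway, was called at -0.15 ± 0.0614 (edgeR adjusted p = 0.047), a call not made without con replicate 2 (adjusted p = 0.19) or 3 (0.076), without TGFB replicate 1 (0.053) or 2 (0.051), or without SiNAT10_TGFB replicate 1 (0.18) or 2 (0.072). GPX4, which reduces lipid peroxides, was near con at -0.08 ± 0.0815 but called higher without the GC trend (0.36). Glycolysis and hypoxia genes were higher in 16 of 23 tested, lower in 3 and near con in 4, with a median of 0.31. VEGFA rose from 35.2, 33.3 and 36.1 CPM to 199, 192 and 181 CPM (2.45 ± 0.0767), the glucose carrier SLC2A3 by 1.38 ± 0.0628 and NDRG1 by 1.01 ± 0.0729, while ADM, adrenomedullin, fell from 101, 94.2 and 105 CPM to 54.5, 59.0 and 56.3 CPM. Stellate cell quiescence genes were thinly measured, with 10 of 16 tested, 4 higher (40%), 3 lower (30%) and 3 unresolved, beside 27.3% of all genes each way. Their median was -0.154, or 0.034 with the GC trend removed. BAMBI, a pseudoreceptor that damps TGF-β signals and is lost on activation in stellate cells, rose from 6.24, 4.63 and 5.90 CPM to 10.1, 13.7 and 11.6 CPM. BAMBI counts were 312, 254 and 333 in TGFB and 283, 299 and 215 in SiNAT10, against 215, 139 and 189 in con. NGFR fell from 12.7, 14.9 and 12.2 CPM to 6.14, 6.95 and 4.6 CPM (-1.17, or -0.74 with the GC trend removed).

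**Figure D4:**
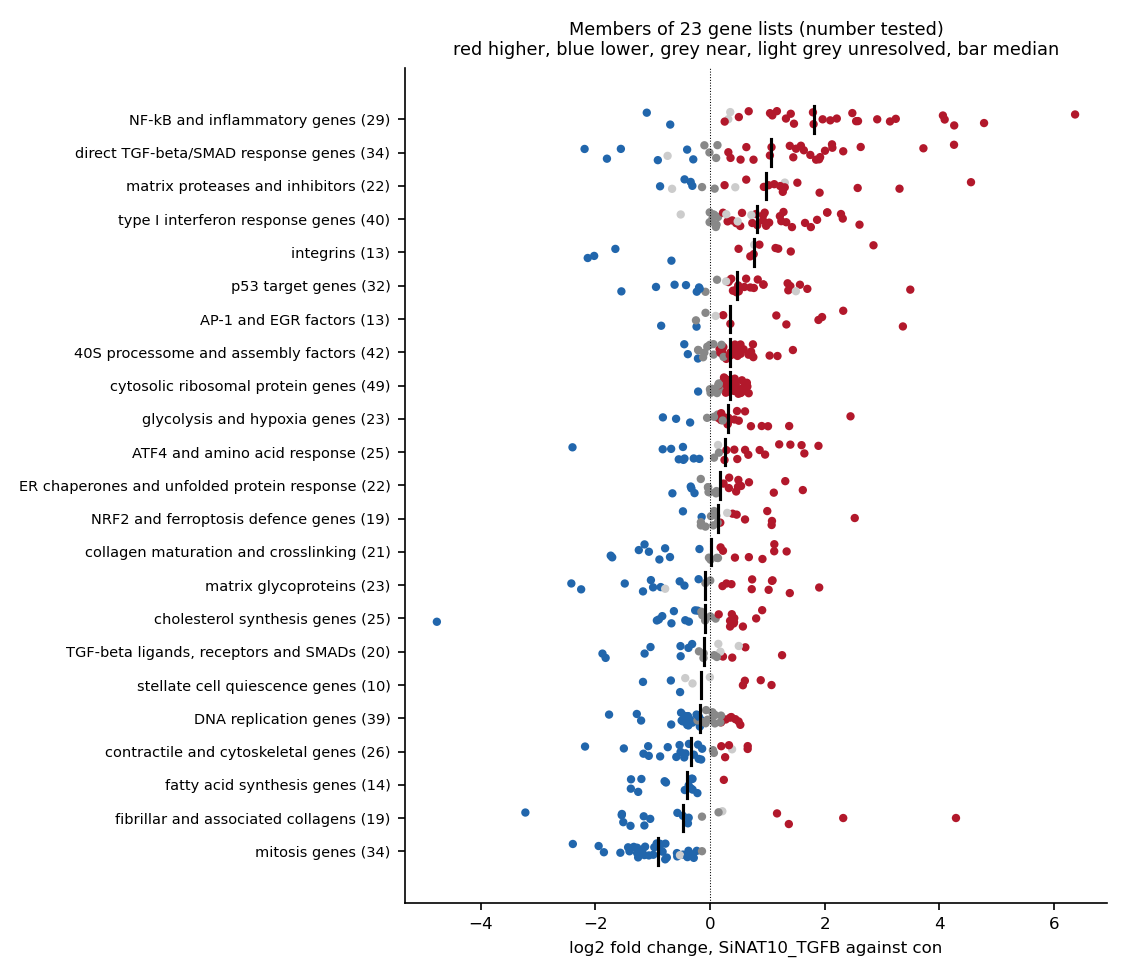
Log2 fold change of SiNAT10_TGFB against con for the tested members of 23 gene lists (points, coloured by end state, with vertical scatter added for legibility), with the list median as a bar and the number tested in brackets. Inflammatory genes have the highest median (1.81) and mitosis genes the lowest (-0.91), and matrix, integrin and SMAD lists hold members on both sides of 0.

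The end state of the genes that TGF-β1 moved was then counted. TGF-β1 alone called 2213 genes higher than con (11.9%) and 2259 lower (12.2%). With library size alone in place of TMM these counts were 1410 and 4623 and the median of all genes shifted by -0.14, so the split of TGFB against con depends on the scaling. Of the 2213 higher genes, 1166 (52.7%) were above con in SiNAT10_TGFB, 454 (20.5%) below, 384 (17.4%) near con and 209 (9.44%) unresolved. Of the 2259 lower genes, 1181 (52.3%) were below con, 448 (19.8%) above, 462 (20.5%) near con and 168 (7.44%) unresolved. Over all 18560 genes tested, 27.3% were above con, 27.3% below, 18.8% near con and 26.6% unresolved. The near con shares of 17.4% and 20.5% thus lie close to the share over all genes. Both comparisons share the con libraries, so a con value that is off by chance moves a gene the same way in both, and the counts are a description with no test. Among the 601 genes that TGF-β1 raised by at least 1 on the log2 scale, 405 (67.4%) were above con, 41 (6.82%) below and 23 (3.83%) near con. Among the 399 that it lowered by that much, 203 (50.9%) were below con, 58 (14.5%) above and 22 (5.51%) near con.

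**Figure D5:**
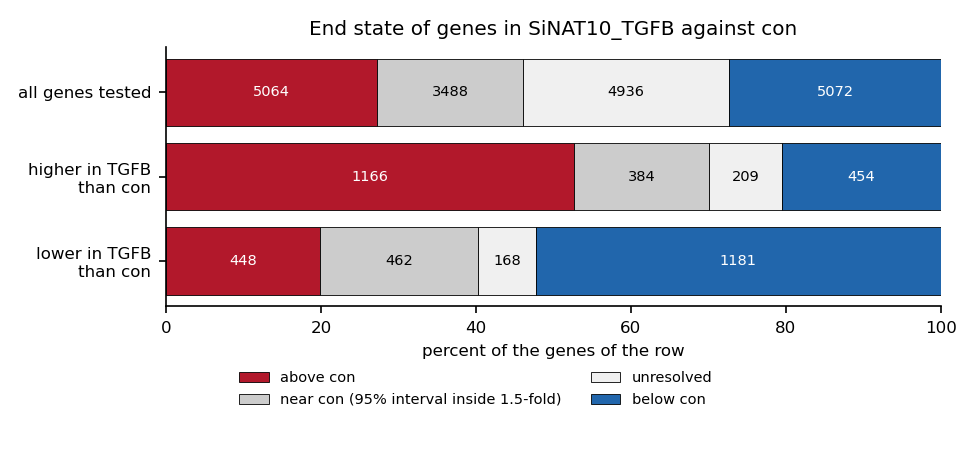
Percent of genes in each end state of SiNAT10_TGFB against con, as stacked bars with the number of genes printed, for the 18560 genes tested and for those called higher (2213) or lower (2259) in TGFB than in con. The largest segment of the higher genes is above con (1166) and that of the lower genes is below con (1181).

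The strongest TGF-β1-induced genes in each end state are named by size of the TGFB change. Above con were KANK4, an ankyrin repeat protein, with 2, 0 and 2 counts in con, 185, 181 and 159 in TGFB and 19, 25 and 56 in SiNAT10_TGFB, ODAPH and PMEPA1 as given, FOXS1, a forkhead factor, with 4, 4 and 2 counts in con and 21, 12 and 14 in SiNAT10_TGFB, and EGR2, an early growth response factor. EGR2 was at 0.755, 0.333 and 0.437 CPM in con and at 5.86, 3.34 and 6.81 CPM in SiNAT10_TGFB, beside 11.4 CPM in TGFB. Near con were LINC00842, LOX, TAGLN, FSTL3 and STARD4-AS1, of which STARD4-AS1 was called higher without SiNAT10_TGFB replicate 2 (0.40, edgeR adjusted p = 0.045). With the GC trend removed LINC00842 moved from 0.23 to 0.12 and STARD4-AS1 from 0.25 to 0.11, neither called. LOX, TAGLN and FSTL3 were called in that fit, as given above. Below con were ACTC1, cardiac actin, AP000892.3, COL5A3, NREP and COL3A1. ACTC1 was at 3.72, 3.40 and 3.03 CPM in con and at 3.09, 1.92 and 2.14 CPM in SiNAT10_TGFB, the groups overlap, and its call (-0.50 ± 0.165, edgeR adjusted p = 0.013) was not made without con replicate 1 (adjusted p = 0.060) or without SiNAT10_TGFB replicate 2 (adjusted p = 0.085) or 3 (adjusted p = 0.061). NREP, a small protein of regenerating tissue, fell more clearly, from 23.6, 23.7 and 24.2 CPM to 15.4, 12.7 and 19.3 CPM, beside 77.7 CPM in TGFB. AP000892.3 overlaps an antisense gene over 74% of its length, so its reads cannot be told apart from that gene's without strand.

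Genes that TGF-β1 lowered could end on the other side of con. SERPINB2, the plasminogen activator inhibitor 2, was at 91.6, 93.7 and 99.2 CPM in con, at a mean of 6.85 CPM in TGFB and 667 CPM in SiNAT10, and at 167, 183 and 195 CPM in SiNAT10_TGFB. It was higher than con by 0.94 ± 0.0757 (edgeR adjusted p = 3.4e-10). SEMA3A, a secreted guidance factor, went from 2.53, 1.63 and 2.53 CPM to 4.06, 5.18 and 4.09 CPM, and ARL14, MMP3 and the locus AL365181.3 were above con as well. The call on ARL14 (0.98 ± 0.338, edgeR adjusted p = 0.018) was not made without con replicate 1 (adjusted p = 0.068) or 2 (adjusted p = 0.083) or without SiNAT10_TGFB replicate 1 (adjusted p = 0.052). CITED2, a transcriptional coactivator, was near con at 115, 130 and 123 CPM against 124, 129 and 132 CPM, between 40.7 CPM in TGFB and 234 CPM in SiNAT10. TMEM158 showed the same order, with 182, 196 and 207 CPM in con, 52.1 CPM in TGFB, 387 CPM in SiNAT10 and 175, 193 and 174 CPM in SiNAT10_TGFB. Both were called with the GC trend removed, CITED2 lower at -0.21 and TMEM158 higher at 0.39, so their place near con depends on that trend. AIM2, a DNA sensor, and LNCAROD were also near con. With the GC trend removed AIM2 moved from -0.18 to -0.32 and LNCAROD from -0.05 to -0.20, neither called.

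The genes most lowered by TGF-β1 and still below con in SiNAT10_TGFB were at low level. GRIN2A, a glutamate receptor subunit, was at 12, 10.5 and 10.5 CPM in con and at 1.87, 1.11 and 2.28 CPM in SiNAT10_TGFB (-2.64 ± 0.262), and SPTLC3, a serine palmitoyltransferase subunit, fell by a log2 fold change of -2.00 ± 0.315. EVI2B and EVI2A, which overlap other genes on their strand, were called lower at -1.46 ± 0.188 and -0.53 ± 0.207. The call on EVI2A was not made without any one of con replicates 1, 2 and 3 (edgeR adjusted p = 0.052, 0.093 and 0.063) or without SiNAT10_TGFB replicate 1 (edgeR adjusted p = 0.24). The pseudogene AC233968.1 had 14, 104 and 268 counts in its 3 con libraries, and without con replicate 3 it was not called (edgeR adjusted p = 0.10).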

How the data were processed

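RNA was measured in 12 LX-2 libraries of 4 groups of 3. The authors deposited whole-number gene counts and FPKM, each in a table of its own. Per the submitters' processing notes, fastp and the aligner HISAT2 2.2.1 were used with the build hg38. The sources used here give no counting tool, annotation, strand setting or selection of tailed RNA. The deposited FPKM values equal the counts scaled by gene length and a factor per library.

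Genes were filtered with filterByExpr and scaled with TMM, and all 12 libraries were fitted with 4 group means by edgeR 4.0.16 (quasi-likelihood, R 4.3.3), with Benjamini-Hochberg adjustment over 18560 genes and calls at an adjusted p under 0.05. Standard errors are the log2 fold change over the square root of F. limma 3.58.1 and DESeq2 1.42.0 gave alternatives. Total counts ran from 25877008 to 35132582 per library. On simulated data for this comparison (17838 tested genes unchanged), 27.7% of 47 genes changed by 0.5 (log2) and 93.9% of 49 changed by 2 were called with the right sign. With so few changed genes the adjusted p threshold is stricter than in the real comparison, where 10136 of 18560 genes were called. These shares therefore do not give the detection rate of the real comparison.

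Genes are named by a rule: 9 set genes, the 8 largest changes each way at a mean of at least 50 counts, up to 3 genes per list and direction, the 5 genes that TGF-β1 moved most per end state, and list members for their end state. The members, the 23 lists (written from general knowledge) and the rule were chosen with earlier results of these data known. Some genes that the rule names are not reported here.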

Additional observations from a re-analysis of the deposited data

How the results depend on the processing

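Counts of genes higher and lower than con moved by less than 1.5 times under every alternative run. With the replicate number of the labels as a replicate block they were 4894 and 4953, and 9804 of the 10136 calls were kept. Deviations of same-numbered con and SiNAT10_TGFB libraries correlated at -0.072 to 0.038 and 0 of 6 libraries correlated best with their own number, so the numbers were not used as pairs. Leaving out each con, TGFB or SiNAT10_TGFB library in turn kept 8940 to 9967 calls. Calls by at least 1 on the log2 scale fell to 688 higher and 1138 lower with a mean of at least 50 counts, to 469 and 517 on log2(FPKM + 1), to 492 and 521 on that scale without a filter, and to 853 higher among protein-coding genes. Near con were 6686 genes with no count filter, 7665 on log2(FPKM + 1), 24084 on it without a filter, 5635 with glmTreat at a fold of 1.2 and 1973 with the narrower of the other intervals tried. Unresolved were 20251 with no count filter, 956 with at least 50 counts, 941 on log2(FPKM + 1) and 1917 among protein-coding genes.

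Of the genes higher in TGFB, 254 were below and 183 near con with library size alone, and of the lower ones 1009 were above, 2135 below, 1200 near and 279 unresolved. At an adjusted p under 0.01 the higher genes gave 769 above and 283 below and the lower ones 252 above and 774 below. With glmTreat these were 537, 135 and 230 near, and 138, 459 and 200 near. With log2(FPKM + 1) and no filter, 295 of the higher genes were below and 287 of the lower above. Unresolved among higher and lower genes were 108 and 85 with at least 50 counts, 34 and 14 on log2(FPKM + 1), 49 and 11 on it without a filter, 348 and 347 with that narrower interval (245 and 283 near), 113 and 90 with a 2-fold interval, and 91 of the higher among protein-coding genes. Genes that TGF-β1 moved by at least 1 on the log2 scale gave 405 above, 41 below, 23 near and 132 unresolved of the higher, and 58, 203 and 22 of the lower. With the GC trend removed FOSL1 turned to 0.11, TBL3 to 0.075 and TMEM158 to 0.387. The median of the quiescence list turned from -0.154 to 0.147 with a mean of at least 50 counts. The 50-count setting tested 13044 genes and the protein-coding setting 13870, in place of 18560, and the settings without a filter tested 37030. The narrower and wider intervals change the near and unresolved counts by definition. What else moved these counts was not tested. Few reads limit COL1A2 and ACTA2, which stayed unresolved.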
